A study of Homo sapiens with 3 samples.

Results

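FOXA2 occupancy was examined at 9 human genes of bile acid transport and feedback in the intestinal cell or of drug and conjugate efflux. They were SLC10A2, SLC51A, SLC51B, FABP6, FGF19, ABCB1, ABCC2, ABCC3 and ABCG2. Each locus is the gene with 50 kb on either side, in hg19, and a peak belongs to it when its midpoint lies inside. The rule uses gene positions only, but the genes were chosen with earlier results of these data known. The 9 intervals cover 1491 kb and held 86 of the 63949 peaks of replicate 1 and 43 of the 26907 peaks of replicate 2. Where peaks of both replicates overlapped by at least 1 bp, the position is called a shared site and is given as replicate 1 has it. There were 37 shared sites at these loci, of 24345 in all.

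The cells were Caco2, an established colorectal adenocarcinoma line that is used as a model of the absorptive intestinal epithelium, grown in low-glucose medium with serum and no other treatment named. Both FOXA2 libraries were immunoprecipitated with the Santa Cruz antibody sc-6554, and a single input library without antibody served the peak calls. All values come from 1 cell line in 1 condition, the libraries are not said to come from separate cultures, and expression was not measured. Replicate 1 held 26183147 tags and replicate 2 held 15756702, and 8.72% and 5.16% of them fell in peaks, per the file headers.

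Bile acids that reach the ileum are taken up from the gut lumen by the sodium-dependent carrier SLC10A2, bound in the cytosol by FABP6 and released toward the blood by a transporter made of 2 subunits, SLC51A and SLC51B. FGF19 is the hormone that ileal cells secrete in response to bile acids and that lowers bile acid synthesis in the liver. ABCB1 (P-glycoprotein), ABCC2 (MRP2) and ABCG2 (BCRP) are ATP-driven pumps of the apical membrane that return drugs and conjugates to the lumen, and ABCC3 (MRP3) is a pump of the basolateral membrane that carries glucuronides and bile acids. FOXA2 is a forkhead factor of endoderm-derived tissues that can bind DNA in compacted chromatin.

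Sequence is shown for the start regions of 3 genes. SLC51B and ABCC2 are shown because they were the only 2 loci with a shared site within 1 kb of the gene start, and SLC51A because it encodes the partner of SLC51B and had no shared site. Each is the 250 bases before the gene start from RefSeq (GRCh38.p14, all on the plus strand), 5′ to 3′. Capitals mark a match, on either strand, to one of 3 forkhead motifs, which are TGTTTAC, then TGTTTGC and then TATTTAC. The windows are chr15:65045137-65045386 for SLC51B, chr10:99782390-99782639 for ABCC2 and chr3:196216284-196216533 for SLC51A. These GRCh38.p14 windows were not laid onto the hg19 peaks, so whether a peak covers them was not determined.
SLC51B: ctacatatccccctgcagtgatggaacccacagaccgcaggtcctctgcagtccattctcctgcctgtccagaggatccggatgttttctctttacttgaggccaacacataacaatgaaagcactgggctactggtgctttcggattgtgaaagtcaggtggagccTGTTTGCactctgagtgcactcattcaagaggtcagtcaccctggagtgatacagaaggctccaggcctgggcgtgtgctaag
ABCC2: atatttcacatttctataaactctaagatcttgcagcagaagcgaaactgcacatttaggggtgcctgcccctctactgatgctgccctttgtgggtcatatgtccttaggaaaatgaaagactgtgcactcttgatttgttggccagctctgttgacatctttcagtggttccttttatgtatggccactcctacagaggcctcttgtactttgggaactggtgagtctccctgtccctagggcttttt
SLC51A: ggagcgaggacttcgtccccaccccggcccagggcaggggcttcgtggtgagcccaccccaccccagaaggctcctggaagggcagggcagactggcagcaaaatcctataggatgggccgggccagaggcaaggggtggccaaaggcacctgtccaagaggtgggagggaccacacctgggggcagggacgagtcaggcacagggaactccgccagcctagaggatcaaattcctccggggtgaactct

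The SLC51B window holds TGTTTGC once, from 83 to 77 bases before the start, and the other two windows hold none of the 3 motifs. RefSeq entries were found for 7 of the 9 genes, with 12 windows of 300 bases in all, and not for FGF19 or ABCC3. Of these 12 windows, 1 (8.33%) held a motif, beside 9.57% of all 35116 windows in the table. The shares over all windows were 3.42% for TGTTTAC, 3.89% for TGTTTGC and 2.67% for TATTTAC. A match describes letters only and is not a bound site.

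Peaks were unevenly spread over the 9 genes. ABCC3 held 10 of the 37 shared sites (27.0%), ABCG2 held 7, FABP6 and ABCB1 held 5 each, ABCC2 held 4, SLC51B 3, FGF19 2 and SLC10A2 1. SLC51A held none. In the 4 pump loci together, 26 shared sites lay in 880 kb, or 2.95 per 100 kb, and in the 5 loci of bile acid uptake, binding, release and signalling, 11 lay in 611 kb, or 1.80 per 100 kb. Without ABCC3 the pump loci had 2.22 per 100 kb. Over all chromosomes there were 0.859 shared sites per 100 kb of sequence, counting the 1 Mb windows with any peak, and 2.48 over the 9 loci. Replicate 1 alone had 5.77 peaks per 100 kb at the loci beside 2.26 over all chromosomes, and replicate 2 alone had 2.88 beside 0.95. The figure over all chromosomes includes long stretches without genes, so it is a reference level and not a matched comparison.

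**Figure D1:**
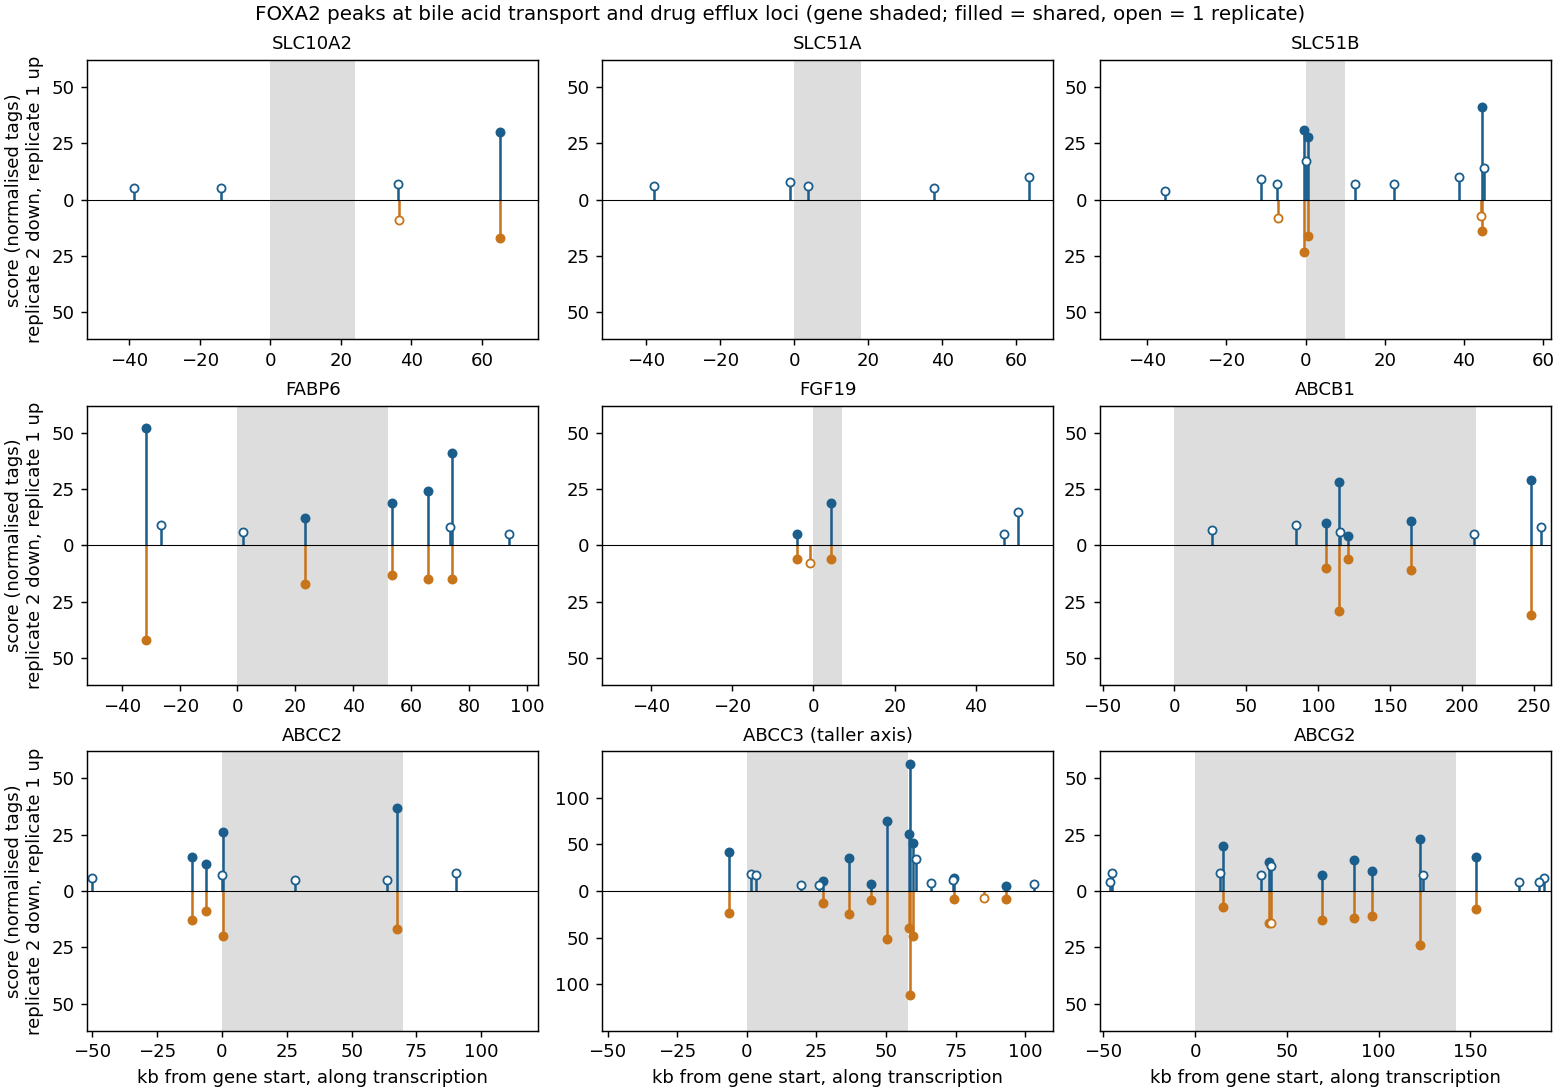
FOXA2 peak scores at each of the 9 loci (replicate 1 upward, replicate 2 downward, in normalised tags) against the distance in kb from the gene start along transcription, with the gene shaded; filled points are shared sites and open points are peaks of a single replicate. ABCC3, on a taller axis, carries the highest peaks at the end of the gene, and SLC51A has replicate 1 peaks only.

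The score is the authors' tag count of a peak scaled to 10000000 tags per library, called normalised tags here. Scores at the shared sites of these loci ranged from a mean of 5 to 124 over the replicates, with a median of 16 beside 14.5 over all shared sites. A mean score of 50 or more was reached by 4 of the 37 (10.8%, 95% Wilson interval 4.29% to 24.7%), and by 8.09% of all shared sites. All 4 were at ABCC3, and the highest elsewhere was 47, at FABP6. Mean scores under 10 were also seen at 4 sites (10.8%, 4.29% to 24.7%), beside 25.2% of all shared sites. The intervals cover counting error only.

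Shared calls at these loci followed the strength of the replicate 1 peak, as they did across the genome. In all, 37 of 86 replicate 1 peaks were shared (43.0%, 33.1% to 53.6%), beside 38.1% of all replicate 1 peaks. Of the 48 with a score up to 10, 7 were shared (14.6%), beside 16.2% of all such peaks. Of the 18 with a score from 11 to 19, 11 were shared (61.1%), beside 64.0%. Of the 20 with a score of 20 or more, 19 were shared (95%), beside 94.6%. Seen from replicate 2, 37 of 43 peaks were shared (86.0%, 72.7% to 93.4%), beside 90.5% of all its peaks. Each of these genome-wide shares lay inside the 95% Wilson interval of the share at the 9 loci.

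ABCC3, the basolateral pump of conjugates and bile acids, had the strongest and most closely set sites. The site at chr17:48770576-48770698 scored 136 in replicate 1 and 112 in replicate 2 (124 ± 17.0, mean ± SD, n = 2). Only 212 replicate 1 peaks (0.332%) and 244 replicate 2 peaks (0.907%) scored as high or higher. It lies at the end of ABCC3, whose body was placed from 48712000 to 48770000 in whole kb. With gene ends known to 1 kb only, its side of that end is not resolved. The next gene in that direction in RefSeq is ANKRD40. RefSeq also has LUC7L3 past ABCC3 and CACNA1G before it, so sites in the flanks need not belong to ABCC3.

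A pair of sites stood on either side of it. At chr17:48770186-48770308, 390 bp before it, the scores were 61 and 40 (50.5 ± 14.8, n = 2). At chr17:48771521-48771643, 945 bp after it, they were 52 and 48 (50 ± 2.83, n = 2). The 3 centres span 1335 bp, and over the genome 18 runs of 3 neighbouring shared sites were as short or shorter, a count made after the run was seen. A further peak at chr17:48772641-48772763 scored 34 in replicate 1, about 89.0 tags, and the nearest replicate 2 peak lay 1116 bp away. It was the single unshared replicate 1 peak at any of the 9 loci that scored 20 or more.

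Other sites lay along ABCC3 and before it. Inside the gene, about 8 kb before its end, chr17:48762183-48762305 scored 75 and 51 (63.0 ± 17.0, n = 2). It is the second strongest of the 37. About 37 kb into the gene, chr17:48748629-48748751 scored 36 and 25 (30.5 ± 7.78, n = 2). About 6 kb before the gene start, chr17:48705648-48705770 scored 42 and 24 (33.0 ± 12.7, n = 2), and it is the shared site nearest to the start.

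The remaining shared sites of ABCC3 were weaker. In the gene, chr17:48739240-48739362 scored 11 and 13 (12 ± 1.41, n = 2). About 16 kb past the gene, chr17:48786283-48786405 scored 14 and 8 (11 ± 4.24, n = 2). The last 2, at 48756584 and 48804845, had mean scores of 9 and 7. Near the gene start, 2 peaks about 2 kb and 3 kb into the gene scored 18 and 17 in replicate 1 and had no counterpart, with the nearest replicate 2 peak 7879 bp and 9651 bp away.

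**Figure D2:**
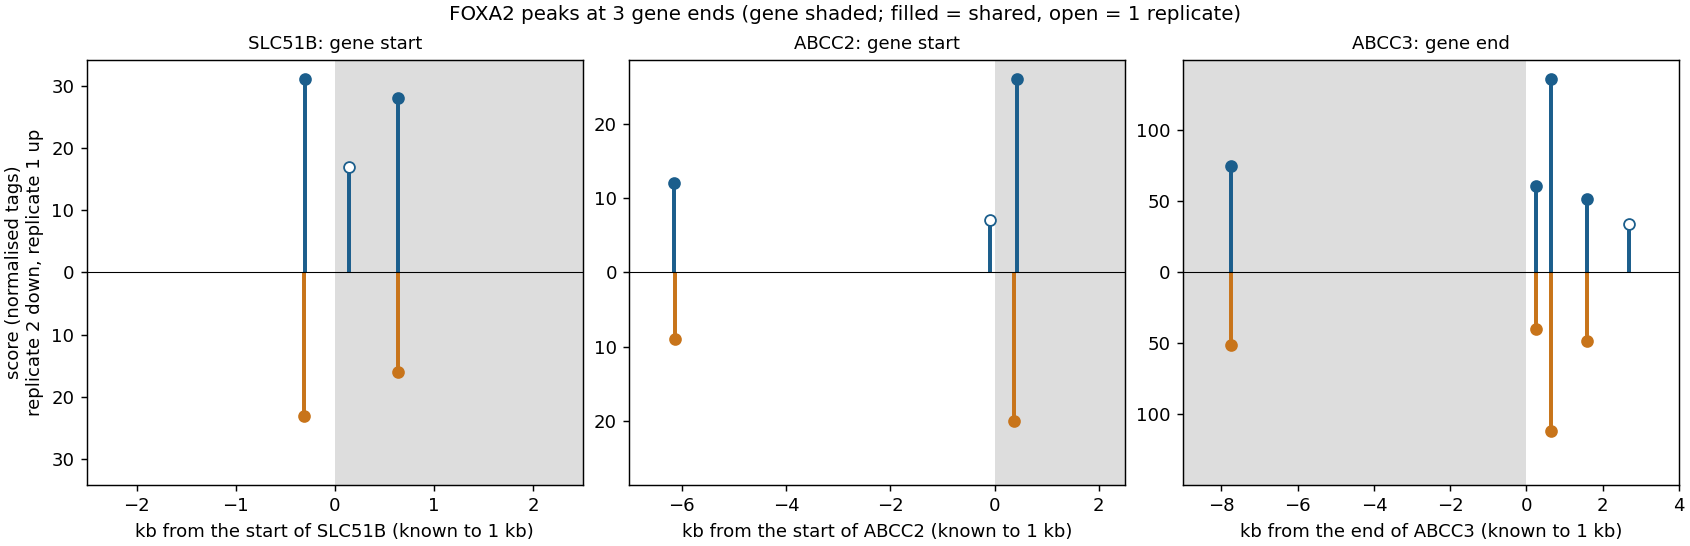
Peak scores (normalised tags, replicate 1 upward, replicate 2 downward) within a few kb of the starts of SLC51B and ABCC2 and of the end of ABCC3, with the gene shaded and positions in kb from that end, which is known to 1 kb; filled points are shared and open points are of a single replicate. At ABCC3, 3 shared sites stand side by side at the gene end, the middle one at 136 and 112.

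SLC51B, the beta subunit of the basolateral bile acid transporter, had 2 shared sites at its start. Its body was placed from 65337000 to 65347000 on chromosome 15. The site at chr15:65336639-65336761 scored 31 in replicate 1 and 23 in replicate 2 (27.0 ± 5.66, n = 2). The site at chr15:65337577-65337699, 938 bp further on, scored 28 and 16 (22.0 ± 8.49, n = 2). Between them replicate 1 had one more peak at 65337087 with a score of 17, which replicate 2 lacked. It lies 448 bp and 490 bp from its neighbours in replicate 1, and the nearest replicate 2 peak was 460 bp away. Since the gene start is known to 1 kb only, the side of it on which each of these peaks lies cannot be told.

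The remaining shared site of SLC51B lay about 35 kb past the gene, at chr15:65381639-65381761. It scored 41 in replicate 1 and 14 in replicate 2 (27.5 ± 19.1, n = 2), a 2.93-fold difference in score between the replicates. A replicate 1 peak with a score of 14 stood 279 bp from it in replicate 1. The replicate 2 peak nearest to that peak was 303 bp away. RefSeq places RASL12 over SLC51B, and MTFMT, KBTBD13 and UBAP1L within 50 kb, so sites in the flanks need not belong to SLC51B.

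SLC51A, the alpha subunit, which is needed together with SLC51B for transport, had no replicate 2 peak in its 118 kb. Its 5 replicate 1 peaks scored 5, 6, 6, 8 and 10, at most about 26.2 tags. The one nearest to the gene start, at chr3:195941875-195941997, scored 8 and lay about 1 kb before it. The nearest replicate 2 peak to any of the 5 was 57290 bp away. Replicate 1 peaks with a score up to 10 were shared in 16.2% of cases over the genome, so at this depth the absence of a replicate 2 peak does not separate weak occupancy from none. The subunits of this transporter therefore differed in these lists in the presence of shared sites, 3 against 0, a difference that was not tested.

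FABP6, the cytosolic bile acid binding protein of ileal cells, had 5 shared sites, and every replicate 2 peak of the locus was among them. The strongest, chr5:159582464-159582586, scored 52 and 42 (47.0 ± 7.07, n = 2) and lay about 31 kb before the gene start. Inside the gene, chr5:159637262-159637384 scored 12 and 17 (14.5 ± 3.54, n = 2), about 23 kb from the outer start, and it is the shared site nearest to that start. The other 3 lay past the gene end, on the side of CCNJL, the one other protein-coding gene named in RefSeq within 50 kb.

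These 3 downstream sites stood at about 2 kb, 14 kb and 22 kb from the end of FABP6. The first, chr5:159667455-159667577, scored 19 and 13 (16.0 ± 4.24, n = 2). The second, chr5:159679677-159679799, scored 24 and 15 (19.5 ± 6.36, n = 2). The third, chr5:159687967-159688089, scored 41 in replicate 1 but 15 in replicate 2 (28.0 ± 18.4, n = 2). The RefSeq start entry of FABP6 lies 42 kb inside the gene's outer start in GRCh38.p14, so the order of sites by distance could differ for that entry. In hg19 the site in the gene and the first one past its end stand at about 23 kb and 54 kb from the outer start, and distances were not converted between builds.

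FGF19, the ileal hormone of bile acid feedback, had 4 peaks in replicate 1 and 3 in replicate 2, with low scores in replicate 2. It is transcribed from the minus strand and its body was placed from 69513000 to 69520000 on chromosome 11. In the gene, chr11:69515713-69515835 scored 19 and 6 (12.5 ± 9.19, n = 2), and 17.3% of replicate 1 peaks scored 19 or higher. About 4 kb before the gene start, chr11:69523933-69524055 scored 5 and 6 (5.5 ± 0.707, n = 2). A score of 6 in replicate 2 stands for about 9.45 tags, and 99.8% of replicate 2 peaks scored as high or higher. Replicate 2 alone had a peak of 8 at 69520771, about 1 kb from the start, which is itself known to 1 kb only. Neither shared site kept a score of 10 in both replicates.

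The highest unshared peak of the FGF19 locus, at 69469686, scored 15 in replicate 1, among its top 24.2%, and lay about 43 kb past the gene end, where RefSeq has LTO1 and CCND1 as neighbours. SLC10A2, the apical uptake carrier, had no peak inside the gene in either list. Its single shared site, chr13:103654673-103654795, scored 30 and 17 (23.5 ± 9.19, n = 2) and lay about 41 kb past the gene end. A replicate 1 peak of 7 and a replicate 2 peak of 9 stood 200 bp apart about 12 kb past the end, without touching. The 2 replicate 1 peaks before the gene start each scored 5. SLC10A2 had 0.806 shared sites per 100 kb, close to the level of 0.859 over all chromosomes.

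ABCC2, the apical pump of glutathione and glucuronide conjugates, had a shared site within 1 kb of its start, on a side that is not resolved. Its body was placed from 101542000 to 101612000 on chromosome 10. The site at chr10:101542367-101542489 scored 26 and 20 (23.0 ± 4.24, n = 2), and replicate 1 had a further peak of 7 at 510 bp from it. Before the gene, chr10:101535794-101535916 scored 12 and 9 (10.5 ± 2.12, n = 2) at about 6 kb. At about 12 kb, chr10:101530395-101530517 scored 15 and 13 (14.0 ± 1.41, n = 2). The start and the 12 kb before it thus carried 3 of the 4 shared sites. The fourth, chr10:101609359-101609481, lay in the gene about 3 kb before its end and scored 37 and 17 (27.0 ± 14.1, n = 2). RefSeq has CUTC before ABCC2 and DNMBP past it, so sites in the flanks need not belong to ABCC2.

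ABCB1, which encodes P-glycoprotein, had sites in the body of a long gene, with scores that were nearly the same in both replicates. RefSeq gives ABCB1 2 start entries, the outer one and one 112 kb inside it in GRCh38.p14. The strongest site in the gene, chr7:87228668-87228790, lay about 114 kb inside the outer start in hg19, close to the same distance, and scored 28 and 29 (28.5 ± 0.707, n = 2). These distances come from different builds and were not converted. At about 105 kb from that start, chr7:87237789-87237911 scored 10 and 10, and it is the shared site nearest to the outer start. At about 165 kb, chr7:87178050-87178172 scored 11 and 11. The weakest, at 87222034 and about 121 kb from the outer start, scored 4 and 6.

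The strongest site of the ABCB1 interval lay outside the gene. At chr7:87094622-87094744, about 38 kb past the gene end, the scores were 29 and 31 (30.0 ± 1.41, n = 2). The next gene in that direction in RefSeq is ABCB4, the phospholipid exporter of the bile canaliculus, and RUNDC3B overlaps ABCB1 itself. No shared site lay within the first 100 kb after the outer start, where replicate 1 alone had peaks of 7 and 9.

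ABCG2, the breast cancer resistance protein, which exports drugs and urate, had 7 shared sites, 6 of them in the gene, all of moderate or low score. The strongest, chr4:89030565-89030687, scored 23 and 24 (23.5 ± 0.707, n = 2) and lay in the gene about 20 kb before its end. The shared site nearest to the outer start, chr4:89137706-89137828, lay about 15 kb from it and scored 20 and 7 (13.5 ± 9.19, n = 2). About 40 kb from it, chr4:89112720-89112842 scored 13 and 14 (13.5 ± 0.707, n = 2).

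The other shared sites of ABCG2 had mean scores from 10 to 13. They were chr4:89066285-89066407 with 14 and 12, chr4:89056355-89056477 with 9 and 11, chr4:89083967-89084089, about 69 kb inside the outer start, with 7 and 13 and, about 11 kb past the gene end, chr4:88999939-89000061 with 15 and 8. A replicate 1 peak of 11 and a replicate 2 peak of 14 had centres 140 bp apart about 41 kb into the gene and did not touch. The latter is the highest replicate 2 peak without a counterpart at any of the 9 loci. RefSeq lists 5 start entries for ABCG2, up to 73 kb inside the outer start in GRCh38.p14, so the order of sites by distance holds for the outer start only. It has PKD2 past its end and PPM1K before its start.

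Sites lay both in and around the genes. By the gene ends in whole kb, 19 of the 37 shared sites (51.4%) were inside a gene body. Of the others, 6 lay before the start and 12 past the end. Gene bodies make up 39.6% of the 1491 kb. Since 5 sites lie within 1 kb of a gene end (2 at SLC51B, 1 at ABCC2 and 2 at ABCC3), their side is not resolved, and the count inside could be from 17 to 22. By the ends as given, with 19 inside, the density was 3.21 per 100 kb in gene bodies and 2.00 per 100 kb in flanks. Among all 86 replicate 1 peaks at the loci, 36 (41.9%) were inside a gene body. The share inside genes over all shared sites was not computed, and a preference for gene bodies was not tested. Of the 19, 6 were in ABCG2, and ABCB1 and ABCC3 held 4 each. ABCC3 held 5 of the 12 past the end, and FABP6 held 3. A shared site within 1 kb of another was seen 5 times (13.5%, 5.91% to 28.0%), beside 6.51% of all shared sites, and these were the 3 sites at the end of ABCC3 and the 2 at the start of SLC51B.

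**Figure D3:**
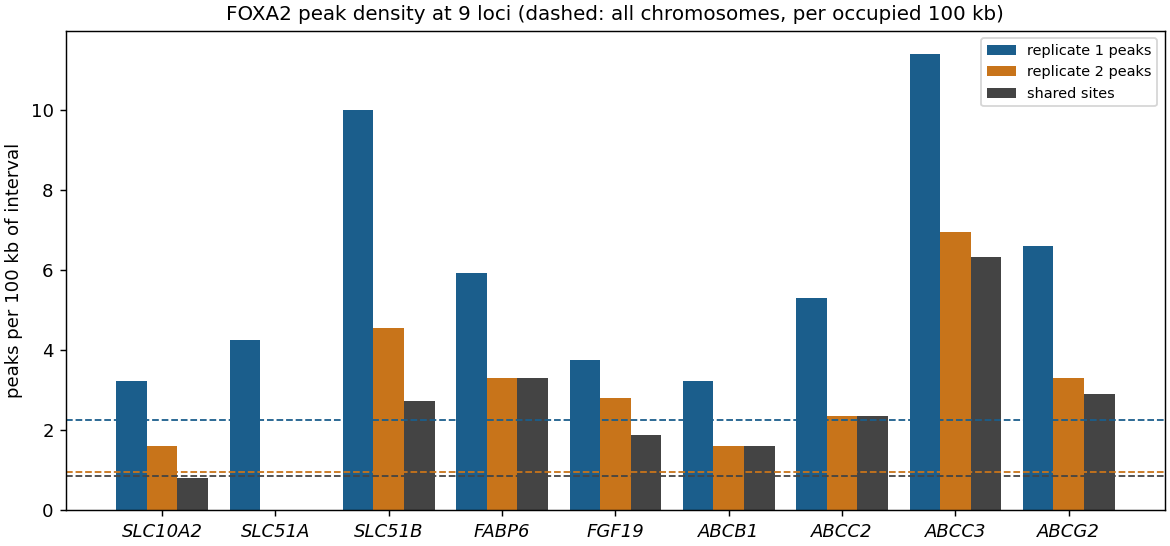
Peaks per 100 kb of interval at each locus for replicate 1, replicate 2 and shared sites, with dashed lines for the same 3 densities over all chromosomes (2.26, 0.95 and 0.859). ABCC3 had the highest bars of all 3 kinds, and SLC51A and SLC10A2 were the only loci without shared-site density above the dashed line.

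The replicates scored the shared sites of these loci with about the same ratio as elsewhere. The median log2 ratio of replicate 1 to replicate 2 was 0.31 (SD 0.65 over 37 sites), beside 0.26 (SD 0.62) over all shared sites. Replicate 2 scored higher at 12 of the 37 (32.4%), beside 29.7% of all shared sites. The ratio fell outside the 95% counting interval around the median of all shared sites at 9 of the 37 (24.3%, 13.4% to 40.1%), beside 22.6% of all shared sites.

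Of those 9, 6 had a larger ratio than the median. The largest log2 ratios were 1.66 at the site in FGF19, 1.55 at the site past SLC51B, 1.51 in ABCG2 at 89137706, 1.45 at the last site past FABP6 and 1.12 in ABCC2 at 101609359. Their standard errors from tag counts lay between 0.31 and 0.51. The centres called by the replicates were a median of 10 bp apart and at most 71 bp apart at these loci, beside a median of 15 bp over all shared sites.

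By locus, the ratio was lowest at ABCB1 and ABCG2. The median log2 ratio was -0.05 over the 5 shared sites of ABCB1 and -0.06 over the 7 of ABCG2, and replicate 2 scored higher at 7 of these 12 and equal at 2. Over the 25 shared sites of the other loci the median was 0.53, and replicate 2 scored higher at 5. The median over all shared sites of the same chromosomes was 0.23 on chromosome 7 and 0.15 on chromosome 4. It was 0.39 on chromosome 17, which holds ABCC3, and from 0.22 to 0.30 on the chromosomes of the remaining loci. The value of chromosome 7 was thus within the range of those chromosomes. ABCB1 and ABCG2 were grouped after their values were seen, and the difference was not tested.

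**Figure D4:**
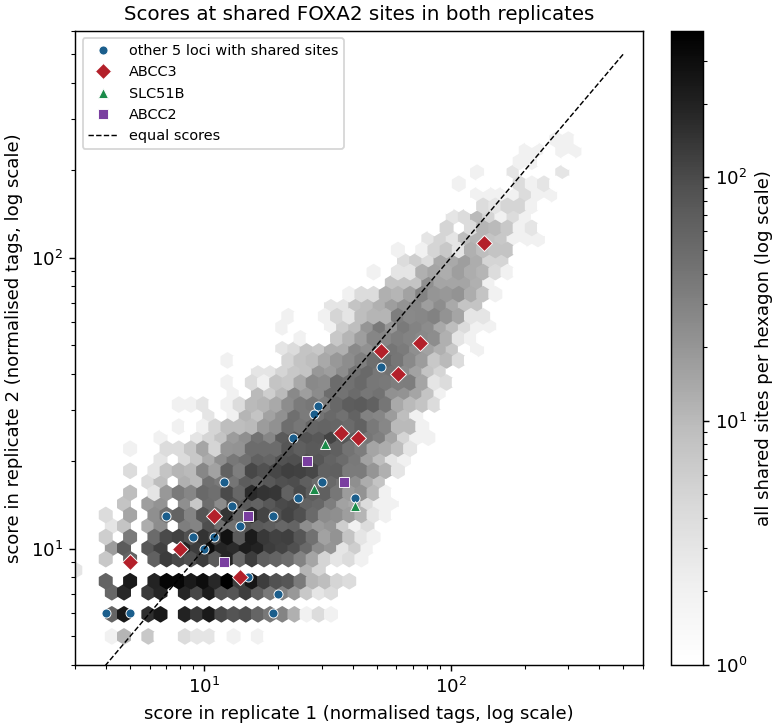
Score in replicate 2 against score in replicate 1 (both in normalised tags on log axes) for the 37 shared sites of the 9 loci, over all 24345 shared sites as grey hexagons, with the line of equal scores. The loci lie within the grey cloud, ABCC3 reaches its upper part at 136 and 112, and empty stripes at low scores come from whole-number scores.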

How the data were processed

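FOXA2 ChIP-seq was done in Caco2 cells, with 2 replicates and 1 input library that enters only through the peak calls. Per the submitters' processing notes, the build was hg19 and the software included HOMER 1.2 as well as Bowtie 1.0.0. Peaks were called by the authors with HOMER findPeaks in each replicate separately against the input, asking 4 times the input and the local level (10000 bp) at a false discovery rate of 0.001, per the file headers. The peak width is fixed in each list, at 123 bp and 151 bp. The deposited score is a whole number, read as the authors' tag count per 10000000 tags, so 1 unit is about 2.62 tags in replicate 1 and 1.58 in replicate 2. It was used to describe and rank peaks.

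From these lists, peaks were assigned to loci by midpoint and paired by an overlap of at least 1 bp, in Python 3.11.15 with pandas 2.3.3, numpy 2.4.6 and scipy 1.17.1. The pairing code was run on simulated peaks whose overlaps were set in advance. That checks the code and not the rate of accidental overlap in these lists. Gene ends are whole kb in hg19. Strand came from RefSeq start entries, and from general knowledge for FGF19 and ABCC3. Neighbouring genes came from RefSeq GRCh38.p14 by name only. The standard error of a log2 ratio is the counting error of the approximate tags. With 1 condition and 2 replicates no test between groups was possible, and shares have 95% Wilson intervals for counting error only. Named sites were the shared sites with a mean score of at least 10, the strongest and the nearest to the outer start at each locus and the highest unshared peaks. Genes, intervals and lists were chosen with earlier results of these data known. Peak sequences, exons and introns, and other genes of the pathway were not analysed here.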

Additional observations from a re-analysis of the deposited data

How the results depend on the processing

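The 37 shared sites became 33 with a reciprocal overlap of at least 50%. Pairing peaks whose centres lay up to 100 bp apart left 37. When centres up to 500 bp apart were paired, 44 replicate 1 peaks had a partner. Only 41 of the 43 replicate 2 peaks were paired at that distance, so 44 counts some replicate 2 peaks more than once and is not a number of separate sites. There were 26 shared sites with a score of at least 10 in both replicates. Shortening the replicate 1 list to the length of the other gave 31 shared sites. With a score of at least 20 in both replicates the count was 12, of which 6 were at ABCC3. Flanks of 20 kb and 100 kb gave 31 and 47. The density thus depended on the flank, with 3.26 per 100 kb at 20 kb, 2.48 at 50 kb and 1.97 at 100 kb. The percentage of replicate 2 peaks shared was 86.0%, with 76.7% under reciprocal overlap and 95.3% with midpoints within 500 bp. Without replicate 1 the density was 2.88 sites per 100 kb and without replicate 2 it was 5.77, since the replicate 1 list is longer. Without ABCC3, a choice made after seeing the data, it was 2.03. Of 72 alternatives for single loci, 53 stayed within 1.5 times and 19 did not (14 lower, 5 higher). The 5 higher include SLC51B at 500 bp, where 6 replicate 1 peaks were counted although the locus holds 5 replicate 2 peaks. FGF19 fell to 0 shared sites with a score of at least 10, SLC10A2 to 0 with flanks of 20 kb, and SLC51A had 1 with flanks of 100 kb. The median log2 ratio was 0.31 and 0.34 under its alternatives. No paired analysis was possible because only the FOXA2 group has replicates.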

Other observations

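Unshared peaks at these loci were mostly weak. The 49 peaks of replicate 1 alone had a median score of 7, from 4 to 34, and 7 of them lay within 500 bp of a replicate 2 peak. The 6 peaks of replicate 2 alone scored from 7 to 14, and 4 of them lay within 500 bp of a replicate 1 peak. The same shares over all unshared peaks were not computed, so these counts only describe the 9 loci. At ABCC3 the replicate 1 peak at 48785907, with a score of 12, stood 376 bp from a shared site. At FABP6 the one at 159687437, with a score of 8, stood 530 bp from a shared site. ABCB1 had a replicate 1 peak of 6 at 1031 bp from its strongest site in the gene. The highest peaks of replicate 1 alone scored 9 at FABP6 (159587501), about 26 kb before the gene, 9 at ABCB1 (87258599) and 8 at ABCC2 (101632287), about 20 kb past the gene. Those of replicate 2 alone scored 8 at SLC51B (65329908), about 7 kb before the gene, and 7 at ABCC3 (48797237), about 27 kb past it. FABP6, ABCB1 and ABCC2 had no peak of replicate 2 alone.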
